A study of Mus musculus with 18 samples.

Results

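The 8 genes described here encode growth and survival factors for leukocytes, namely Csf1, Csf2, Csf3, Il34, Il7, Il15, Kitl and Tnfsf13b. They were chosen by name, matched to the Ensembl identifiers of the count tables, and are 8 of 55401 counted genes. Each was followed in 18 RNA-seq libraries of stromal cells that bear gp38 (podoplanin) and came from the salivary glands of 8- to 12-week-old Balb/c mice by flow cytometric sorting. For the infected groups, a replication-defective adenovirus 5 was delivered into the submandibular gland by cannulation of its duct, which induces ectopic lymphoid structures, and glands were collected at hour 3 (replicates 4 to 6), day 1 (replicates 13 to 15), day 2 (replicates 16 to 18), day 8 (replicates 1 to 3) and day 23 (replicates 7 to 9). The group at hour 0 (replicates 10 to 12) was not infected, and no group cannulated without virus was analysed here. Each group held 3 libraries, each labelled as a mouse of its own, and the cells were wild-type in all groups. The title of the series concerns early commitment and immune properties of fibroblasts, and the time course shows when these 8 genes were expressed.

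These cytokines keep leukocytes alive and make them divide, and stromal cells of lymphoid organs are a known source of several of them. Csf1 and Il34 both bind the receptor Csf1r of macrophages. Csf2 (GM-CSF) and Csf3 (G-CSF) act on granulocytes and myeloid cells, Il7 and Il15 on lymphocytes, Kitl (stem cell factor) on Kit-bearing cells such as mast cells, and Tnfsf13b (BAFF) on B cells. In salivary glands BAFF is best known from Sjögren's syndrome.

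Total counts per library ran from 4398234 to 15234431. All 10 fibroblast markers had counts in every group, and their summed level, in CPM (counts scaled to a fixed library size), was 43465 to 44560 at hour 3 and 11105 to 15062 at day 1, against 24572 to 29109 at hour 0. By background the libraries formed 2 sets with no label of their own, hour 3, day 8 and day 23 in one and hour 0, day 1 and day 2 in the other. Counts on 1781 sensory receptor genes, taken as a measure of background, averaged 0.00254 to 0.00875 CPM per kb in the first set and 0.0606 to 0.201 CPM per kb in the second. Set and time cannot be told apart wherever a comparison crosses the sets (hour 3, day 8 or day 23 against hour 0, day 1 against hour 3, and day 8 against day 2). The comparisons of the infected groups with hour 0 also share the same control libraries. Scaling by TMM and scaling by library totals differed: over all genes tested the median log2 fold change at hour 3 against hour 0 was -1.41 with TMM and -2.53 with library totals. The same median with TMM and with library totals was -0.41 and -0.31 at day 1, 0.29 and 0.65 for day 2, -0.68 and -1.07 for day 8, and -0.53 and -0.98 for day 23. The median also depended on the genes kept. With TMM at hour 3 it was -0.23 with a minimum of 5 CPM in 3 libraries, and -0.05 at day 8. With only the 2 groups compared it was -0.38 at hour 3, and with background subtracted -1.01. Values below that are relative to the median of all genes use the fit of 27525 genes. CPM are TMM-scaled unless stated, and "rose" or "fell" means an adjusted p under 0.05 in an edgeR quasi-likelihood fit of 27525 genes.

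The sharpest changes came within 3 hours. At hour 3, 6 of the 8 genes differed from hour 0, 5 higher and 1 lower, in a comparison that called 59.9% of all genes, 16.9% higher and 43.1% lower. Csf1, Csf2 and Csf3 rose by 6.66 to 8.02 on the log2 scale, Il34 and Kitl rose by less and did not pass with library totals, and Il15 fell. At day 1, 5 of 8 differed, all higher, where 22.5% of all genes were called (9.67% higher). At day 2, 3 of 8 differed, all higher, where 14.8% of all genes were called (5.13% higher). At day 8 and day 23, 2 of 8 differed each time, 1 higher and 1 lower, where 43.9% of all genes were called at day 8 (11.2% higher, 32.7% lower) and 34.0% at day 23 (8.52% higher, 25.4% lower). With library totals the members called were 3 higher and 2 lower at hour 3, 0 higher and 3 lower at day 8, and 1 higher and 3 lower at day 23, while day 1 and day 2 kept the counts above. Over the 6 groups together, 7 of 8 changed by the F test, as did 83.9% of all genes. Il7 was the exception (adjusted p = 0.516).

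**Figure D1:**
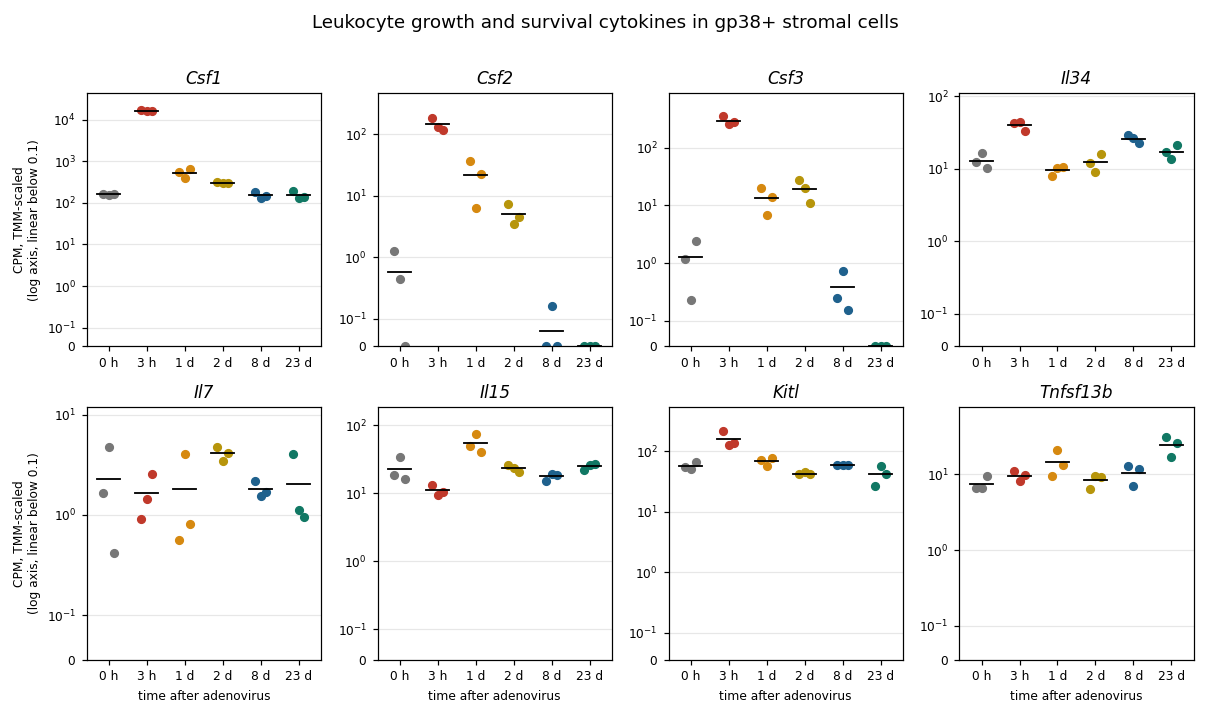
TMM-scaled CPM of the 8 genes (log axis, linear below 0.1) by time after adenovirus, 1 point per library and a bar at the mean of 3. Csf1, Csf2 and Csf3 peaked at hour 3 with means of 16389, 145 and 298 CPM, Il15 was highest at day 1 with 55.7 CPM, and Tnfsf13b was highest at day 23 with 24.4 CPM.

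Csf1 (ENSMUSG00000014599, GRCm38 chr3:107741048-107760469, minus strand) encodes the main growth and survival factor of macrophages. Its hour 3 libraries held 17024, 16277 and 15867 CPM, against 166, 155 and 167 CPM at hour 0. All hour 3 libraries lay far above every other library, and the values within hour 3 and within hour 0 were close. Csf1 was the gene of rank 6 by level in all 3 hour 3 libraries and took 0.870% of their counts, against ranks of 682 to 705 and 0.0195% of counts at hour 0. The log2 fold change at hour 3 was 6.66 ± 0.25 (SE, adjusted p = 1.8e-17), and 5.48 with library totals. Relative to the median of all genes it was 8.06 with TMM.

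After hour 3 the Csf1 level came down in steps. The day 1 libraries held 541, 383 and 634 CPM, and the day 2 libraries 308, 294 and 307 CPM. At day 8 they held 184, 132 and 149 CPM and at day 23 197, 130 and 140 CPM. The libraries of hour 3, day 1, day 2 and hour 0 did not overlap in this order from high to low, while day 8, day 23 and hour 0 overlapped. Against hour 0 Csf1 rose by 1.68 ± 0.20 at day 1 (adjusted p = 9.38e-08) and by 0.90 ± 0.19 at day 2 (adjusted p = 0.00114) on the log2 scale, both within a set. Against hour 3 it fell by 4.98 at day 1 (adjusted p = 3.48e-16). From day 1 to day 2 it fell by 0.78 (adjusted p = 0.00482), a call lost with library totals, where the change was -0.51 (adjusted p = 0.0788). At day 8 the difference from hour 0 was -0.07 ± 0.19 and at day 23 -0.06 ± 0.19 (adjusted p = 0.793 and 0.819).

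The promoter window of Csf1, from 250 bases before to 50 after the start site at chr3:107760420-107760719 (RefSeq, GRCm38.p6, minus strand), is shown because Csf1 was the most abundant of the 8 genes at hour 3. Capitals mark a match to the kappaB motif, on the strand opposite to the gene, that begins at position -154 from the start.
Csf1 promoter: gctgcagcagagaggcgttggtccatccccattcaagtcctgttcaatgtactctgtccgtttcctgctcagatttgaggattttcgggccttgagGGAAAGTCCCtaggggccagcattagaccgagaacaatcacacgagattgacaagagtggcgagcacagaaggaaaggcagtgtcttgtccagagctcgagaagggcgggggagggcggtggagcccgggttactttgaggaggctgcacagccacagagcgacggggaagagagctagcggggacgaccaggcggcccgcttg
The search covered kappaB, AP-1 (TGANTCA), an interferon response motif (GAAA, any 2 bases, GAAA), GAS (TTCNNNGAA) and CK-1 (GAGATTCC) on both strands, and a TATA box (TATAAA) on the gene's strand. The Csf1 window held the kappaB match and none of the other motifs. Over 32851 promoter windows of 300 bases, 4.51% held kappaB, 7.81% AP-1, 3.44% the interferon response motif, 8.3% GAS, 8.32% the TATA box and 0.904% CK-1. The sequence table held windows for 4 of the 8 genes. The Kitl window held a TATA box at position -25. The Csf2 window of that table lies wholly upstream of the start given below and is not described. These are matches of letters in the reference genome, which is of another strain than the mice.

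Csf2 (ENSMUSG00000018916, chr11:54247271-54249667, minus strand), which encodes the granulocyte-macrophage factor, was near 0 in uninfected cells. The hour 3 libraries held 186, 133 and 117 CPM, against 1.25, 0.452 and 0 CPM at hour 0. The groups did not overlap, and the hour 0 level rested on 17 counts over 3 libraries against 3355 at hour 3. Csf2 rose by 8.02 ± 0.62 (adjusted p = 3.32e-11), or 6.84 with library totals. At day 1 the libraries held 37.3, 6.42 and 22.8 CPM and at day 2 7.49, 3.45 and 4.47 CPM. Replicate 14, the lowest day 1 library, lay within the range of day 2, and all day 1 and day 2 libraries lay above hour 0. The rise against hour 0 was 5.31 ± 0.60 at day 1 (adjusted p = 7.92e-08) and 3.18 ± 0.65 at day 2 (adjusted p = 0.000708).

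Csf2 then left the detectable range. The 3 day 8 libraries held 2 counts in all and the 3 day 23 libraries held 0. Day 8 was 2711-fold below hour 3 (95% exact interval 750 to 22398) and 92.2-fold below day 2 (25.0 to 770), and day 23 was at least 1034-fold lower than hour 3, taking 3 counts over the group as the floor. These intervals and floors cover counting error only. Against hour 0, Csf2 at day 23 was at least 3.86-fold lower and did not pass the test (adjusted p = 0.0529), nor did it at day 8 (adjusted p = 0.0556). With library totals both passed (adjusted p = 0.019 at day 23 and 0.0193 at day 8).

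Csf3 (ENSMUSG00000038067, chr11:98701263-98703629, plus strand), the factor that drives neutrophil production, followed a like course with a slower end. At hour 3 its libraries held 354, 259 and 280 CPM, against 1.16, 0.226 and 2.39 CPM at hour 0. It rose by 7.79 ± 0.47 (adjusted p = 3.26e-13), or 6.63 with library totals. The day 1 libraries held 20.0, 6.77 and 13.9 CPM and the day 2 libraries 27.4, 20.0 and 10.8 CPM. These groups overlapped with each other and lay apart from hour 0. Csf3 was higher than at hour 0 by 3.33 ± 0.44 at day 1 (adjusted p = 1.27e-06) and by 3.84 ± 0.45 at day 2 (adjusted p = 2.61e-07), and day 2 against day 1 did not pass (0.50 ± 0.35, adjusted p = 0.281). At day 8 there were 14 counts in 3 libraries (0.249, 0.729 and 0.155 CPM) and at day 23 there were 0. Day 8 overlapped with hour 0, and its fall by 1.79 (adjusted p = 0.0344) was lost in 6 alternatives, among them without replicate 1, 3 or 12 (adjusted p = 0.0857, 0.111 and 0.356). Day 23 was at least 9.76-fold lower than hour 0 (adjusted p = 0.00412) and at least 2119-fold lower than hour 3. Neutrophil markers, 9 of 10 with counts and Elane at 0, summed to 37.7 to 48.2 CPM at hour 3, against 8.01 to 15.7 CPM at hour 0, and their part in this result was not tested. Of the mean sum of 41.2 CPM at hour 3, S100a9 held 21.4 CPM and Csf3r 9.08 CPM. Of the mean sum of 11.5 CPM at hour 0, S100a9 held 0.0753 CPM and Csf3r 2.29 CPM. At day 23, 6 of the 10 neutrophil markers were at 0.

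The 3' untranslated regions of Csf2 and Csf3 are rich in the pentamer ATTTA, the core of AU-rich elements known to shorten the life of cytokine mRNAs. This count was chosen after the levels had been seen. The stretches of 30 bases with the most pentamers are shown for the 3 colony-stimulating factors, from GENCODE M21 transcripts on GRCm38, with the pentamers in capitals. They lie at chr11:54247329-54247358 (Csf2, minus strand), chr11:98702984-98703013 (Csf3, plus strand) and chr3:107741109-107741138 (Csf1, minus strand).
Csf2: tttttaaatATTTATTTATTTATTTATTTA
Csf3: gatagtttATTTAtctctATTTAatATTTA
Csf1: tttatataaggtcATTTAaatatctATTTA
Csf2 had 9 pentamers in 317 bases, or 28.4 per kb, and 4 copies of the nonamer TTATTTATT, with overlapping copies counted. Of 810 untranslated regions within 10 percent of its length, 0% had as many pentamers and 1.85% had the nonamer. Csf3 had 6 pentamers in 669 bases, or 8.97 per kb, a number reached by 1.5% of 1065 regions of like length, and 0 copies of the nonamer. Csf1 had 4 in 2111 bases, reached by 48.7% of regions of like length. The other members ran from 1.56 per kb (Il7) to 3.55 per kb (Il15). Of these, Tnfsf13b had 1 copy of the nonamer, which 15.4% of regions of like length held. The richest stretches of 30 bases in Kitl and Tnfsf13b held 2 pentamers each, as did that of Csf1. These letters describe the reference sequence, and mRNA decay was not measured.

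Il34 (ENSMUSG00000031750, chr8:110741829-110805924, minus strand), the other ligand of Csf1r, was highest at hour 3 with TMM, followed by day 8. With library totals day 8 had the higher mean, 24.1 CPM against 21.5 CPM at hour 3. The hour 3 libraries held 43.4, 44.2 and 33.7 CPM and the day 8 libraries 29.6, 26.6 and 22.7 CPM, against 12.3, 16.5 and 10.4 CPM at hour 0. Both groups lay above hour 0 without overlap, and hour 3 lay above day 8. Day 1 held 7.95, 10.4 and 10.6 CPM, day 2 held 12.1, 9.04 and 15.9 CPM, and day 23 held 16.9, 13.6 and 21.5 CPM, each of which overlapped with hour 0. Il34 rose by 1.63 ± 0.25 at hour 3 (adjusted p = 4.74e-06) and by 1.01 ± 0.25 at day 8 (adjusted p = 0.00289). Both calls were lost with library totals, where the changes were 0.45 (adjusted p = 0.128) and 0.62 (adjusted p = 0.0609). Relative to the median of all genes, the change at hour 3 was 3.04 and that at day 8 1.69 with TMM. By group means with TMM, Il34 in the set of hour 3, day 8 and day 23 lay above the set of hour 0, day 1 and day 2. With library totals day 23 (15.4 CPM) lay below day 2 (19.0 CPM). Within the set of hour 3, day 8 and day 23, day 8 against hour 3 (-0.62) and day 23 against day 8 (-0.62) did not pass. Day 23 against hour 3 passed (-1.24), and the change was -0.50 with library totals. Il34 also fell by 2.06 at day 1 against hour 3 (adjusted p = 1.13e-07) and rose by 1.08 at day 8 against day 2 (adjusted p = 0.000908), the second of which was lost with library totals (0.34, adjusted p = 0.272). Il34 shares 22 and 75 exon bases with the antisense genes Gm15894 and Gm15895, and the strand setting of the counting is not given in the sources used here.

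The ligands of Csf1r can be set side by side per length. Per kb of exon, Csf1 held 3103 CPM and Il34 20.6 CPM at hour 3, and 29.3 and 13.4 CPM at day 8, against 30.8 and 6.68 CPM at hour 0. Csf1 was the more abundant of these Csf1r ligands at every time by this measure. Of the summed CPM per kb of the 8 genes, Csf1 made up 87.5% at hour 3 and 46.5% at day 8, against 51.0% at hour 0. Il34 made up 0.580% at hour 3 and 21.4% at day 8, against 11.0% at hour 0.

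**Figure D2:**
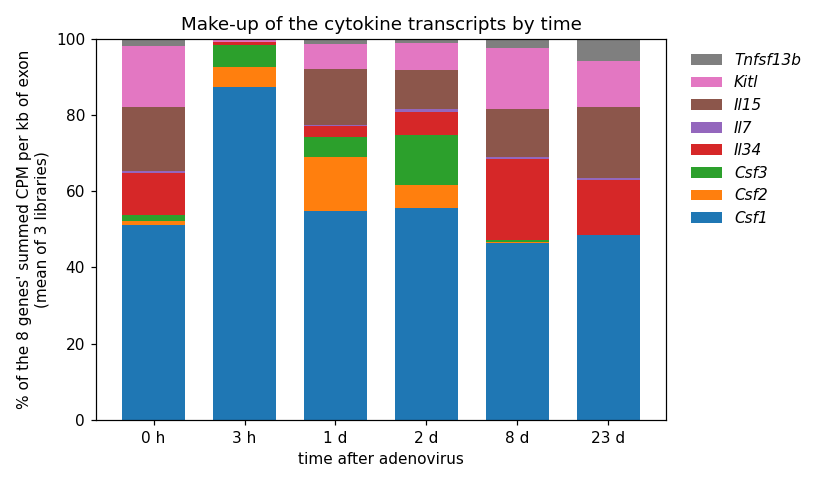
Share of each gene in the summed CPM per kb of exon of the 8 genes, as a mean of 3 libraries, by time after adenovirus. Csf1 made up 87.5% at hour 3 and between 46.5% and 55.6% at the other times, and Csf2 and Csf3 are visible mainly at hour 3, day 1 and day 2.

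Kitl (ENSMUSG00000019966, chr10:100015630-100100416, plus strand) encodes stem cell factor, the ligand of Kit. Kitl levels at hour 3 were 217, 127 and 136 CPM, against 54.2, 50.2 and 67.5 CPM at hour 0. The groups did not overlap, and replicate 4 stood above the other two. The rise of 1.48 ± 0.22 (adjusted p = 2.82e-06) became 0.31 with library totals (adjusted p = 0.17), and relative to the median of all genes it was 2.89 with TMM. Kitl had 72.0, 57.6 and 77.7 CPM at day 1 and 41.8, 44.6 and 41.8 CPM at day 2. Day 8 had 59.7, 58.6 and 58.5 CPM, and day 23 had 26.7, 57.1 and 41.3 CPM. No later group passed the test against hour 0, although the day 2 libraries all lay below the hour 0 libraries (-0.42 ± 0.22, adjusted p = 0.242). With library totals Kitl was lower at day 23 (-0.92, adjusted p = 0.00202), against -0.45 with TMM (adjusted p = 0.107). Kitl at day 1 was below hour 3 by 1.21 with TMM (adjusted p = 4.75e-05) and did not differ with library totals (0.07, adjusted p = 0.782). Its fall of 0.69 from day 1 to day 2 (adjusted p = 0.0233) was lost in 9 alternatives, with library totals among them (-0.43, adjusted p = 0.126) and without replicate 13, 15, 16, 17 or 18 (adjusted p = 0.0525 to 0.0878).

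Il15 (ENSMUSG00000031712, chr8:82331632-82403222, minus strand), a survival factor of NK cells and memory CD8+ T cells, moved in the opposite direction at first. The hour 3 libraries held 13.4, 9.33 and 10.7 CPM and the day 1 libraries 50.4, 75.3 and 41.4 CPM, against 18.7, 34.8 and 16.1 CPM at hour 0. Hour 3 lay below and day 1 above every hour 0 library. Il15 fell by 1.05 ± 0.26 at hour 3 (adjusted p = 0.00181) and rose by 1.27 ± 0.25 at day 1 (adjusted p = 0.000324). The change at hour 3 was 0.35 above the median of all genes in this fit, which was -1.41. With a minimum of 5 CPM in 3 libraries that median was -0.23. Day 1 exceeded hour 3 by 2.32 ± 0.27 (adjusted p = 3.62e-08). At day 2 the libraries held 26.4, 23.9 and 21.0 CPM, and the fall from day 1 was 1.23 (adjusted p = 0.000982). Day 8 held 15.4, 19.0 and 18.9 CPM and day 23 held 22.1, 26.4 and 27.1 CPM, and neither passed the test against hour 0. With library totals day 8 was lower (-0.80, adjusted p = 0.014). Across the 18 libraries Il15 and Il34 ran against each other with a Pearson r of -0.739 on log2 CPM, a description of libraries that share their groups and scaling.

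Il7 (ENSMUSG00000040329, chr3:7569994-7613760, minus strand), the survival factor of naive T cells and a product of lymph node stroma, passed the test in none of the 11 pairwise comparisons. The hour 3 libraries held 0.909, 1.45 and 2.57 CPM and the day 2 libraries 4.79, 3.45 and 4.16 CPM, against 1.64, 4.74 and 0.412 CPM at hour 0. The hour 0 libraries alone spanned the range of the other groups apart from replicate 16 at day 2. Counts were low, 38 over the 3 hour 3 libraries and 101 over the 3 day 2 libraries, against 64 at hour 0, and the hour 0 libraries held 17, 42 and 5 counts each. With library totals it passed in 1 comparison, day 8 against day 2 (-1.94, adjusted p = 0.0336), and in the F test (adjusted p = 0.0292). Il7 shares 105 exon bases with the antisense gene Gm16685, which had 271 counts at hour 3 and 8 at hour 0. The level estimated as background would give 19.6 of the 64 counts at hour 0.

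Tnfsf13b (ENSMUSG00000031497, chr8:10006467-10039072, plus strand), the B cell survival factor BAFF, was the member that changed late. The day 23 libraries held 30.9, 16.8 and 25.5 CPM, against 6.56, 6.55 and 9.40 CPM at hour 0. All day 23 libraries lay above all hour 0, hour 3, day 2 and day 8 libraries, while replicate 14 of day 1 lay within their range. Tnfsf13b rose by 1.69 ± 0.32 at day 23 against hour 0 (adjusted p = 0.00057), and by 1.28 with library totals (adjusted p = 0.0053). Against day 8, within the same set, it rose by 1.21 ± 0.31 (adjusted p = 0.019). In this comparison 1 of 8 members and 5.32% of all genes were called (2.25% higher, 3.08% lower). The call against day 8 was lost without replicate 2 (adjusted p = 0.172) or replicate 7 (adjusted p = 0.0822), and with only these 2 groups in the fit (adjusted p = 0.0558).

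The middle of the Tnfsf13b course was less certain. Hour 3 had 10.9, 8.02 and 9.63 CPM and day 1 had 9.40, 20.6 and 13.4 CPM. Day 2 had 6.44, 9.40 and 9.15 CPM and day 8 had 12.8, 6.96 and 11.7 CPM. At day 1 the gene rose by 0.94 ± 0.31 (adjusted p = 0.0296), and the call was lost without replicate 10, 11, 14 or 15 (adjusted p = 0.0516 to 0.183) and with limma-voom (adjusted p = 0.0655). At hour 3 the change was 0.34 ± 0.32 with TMM (adjusted p = 0.357) and -0.83 with library totals (adjusted p = 0.0285), so its direction depended on the scaling. The second of its promoter windows, chr8:10006383-10006682 (RefSeq, GRCm38.p6, plus strand), held an AP-1 match beginning at position -127 and an interferon response match beginning at position -16, which do not overlap. It is shown, with both in capitals, because it held motifs that the Csf1 window lacked.
Tnfsf13b promoter: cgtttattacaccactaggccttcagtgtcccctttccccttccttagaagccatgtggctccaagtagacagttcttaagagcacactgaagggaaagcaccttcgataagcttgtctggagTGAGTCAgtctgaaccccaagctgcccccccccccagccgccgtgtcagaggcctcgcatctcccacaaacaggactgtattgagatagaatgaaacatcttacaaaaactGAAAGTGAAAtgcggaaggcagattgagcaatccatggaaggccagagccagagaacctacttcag
The first window shares the AP-1 match and held no other motif of the 6.

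**Figure D3:**
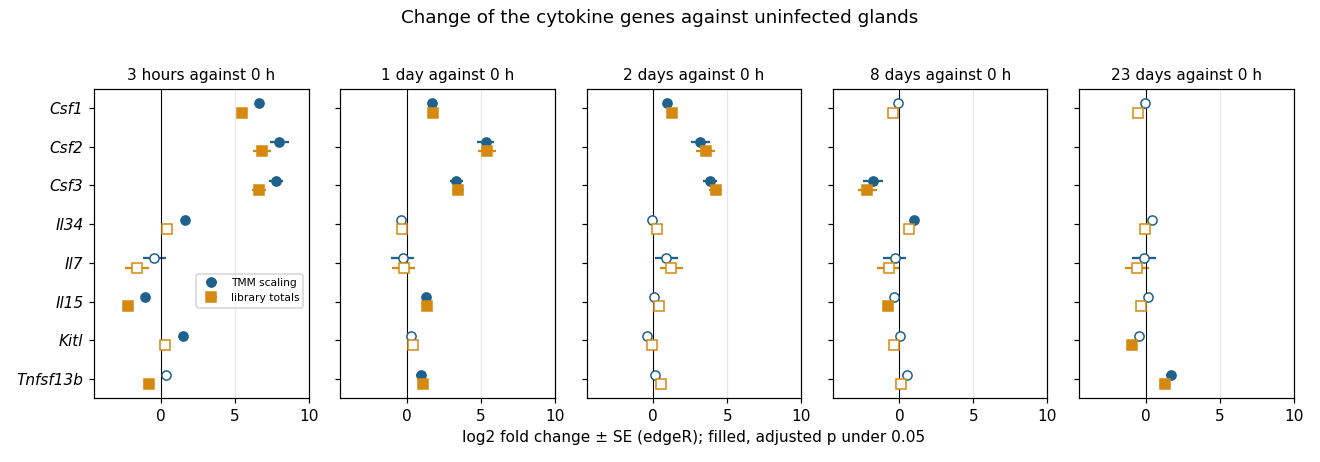
Log2 fold change ± SE of each gene against hour 0 at 5 times, with TMM scaling (circles) and library totals (squares), filled where the adjusted p is under 0.05. Csf1, Csf2 and Csf3 are filled and above 0 at hour 3, day 1 and day 2 under both scalings, and Il34 and Kitl at hour 3 are filled with TMM only. Values resting on 0 to 3 counts are not drawn (Csf2 at day 8 and day 23, Csf3 at day 23).

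The steps between successive times were also tested. From hour 3 to day 1, 6 of 8 members changed, 5 lower and 1 higher, where 44.3% of all genes were called (16.8% lower, 27.5% higher). Csf1, Csf2, Csf3, Il34 and Kitl were lower and Il15 higher. From day 1 to day 2, 4 of 8 fell (Csf1, Csf2, Il15 and Kitl), where 23.2% of all genes were called (11.2% lower). The fall of Csf2 was 2.13 ± 0.46 (adjusted p = 0.00172) and was lost with DESeq2 (adjusted p = 0.113). From day 2 to day 8, 4 of 8 changed, with Csf1, Csf2 and Csf3 lower and Il34 higher, where 61.4% of all genes were called (43.3% lower, 18.0% higher). Against hour 3, 4 of 8 had fallen at day 8 (Csf1, Csf2, Csf3 and Kitl, where 30.7% of all genes were called, 14.1% lower) and 7 of 8 had changed at day 23, 5 lower and 2 higher, where 30.0% were called (14.3% lower, 15.7% higher). With library totals these counts were 4 lower and 2 higher at both times. They were also 4 lower and 2 higher for day 1 against hour 3, and 5 lower and 0 higher for day 8 against day 2. The 2 that were higher at day 23 than at hour 3 were Il15, by 1.18 (adjusted p = 0.000852), and Tnfsf13b, by 1.35 (adjusted p = 0.00128).

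The summed level of the 8 genes was 268 ± 5.62 CPM (SD, n = 3 here and below) in uninfected cells. It was 17055 ± 718 CPM at hour 3, 706 ± 128 CPM by day 1 and 419 ± 13.9 CPM by day 2. The late groups had 271 ± 29.7 CPM (day 8) and 266 ± 27.4 CPM (day 23). In bulk RNA, more cells of a type and more RNA per cell cannot be told apart. Among the members, Csf2 and Csf3 ran most alike over the 18 libraries (Pearson r = 0.950 on log2 CPM), followed by Csf1 with Csf2 (0.874) and with Csf3 (0.870). Within day 1, replicate 14 was the lowest library for Csf1, Csf2, Csf3 and Kitl and the highest for Il7, Il15 and Tnfsf13b. It also had the highest background of the day 1 libraries, 0.0850 CPM per kb on the sensory receptor genes against 0.0546 and 0.0422, and the part of this in the spread was not tested.

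The genes most like each member were sought among 10406 genes, kept by their highest group mean in CPM, by Pearson r over the 18 libraries. Nearest to Csf1 were Pxn (0.991), Med13l (0.991) and Dab2 (0.990). Nearest to Csf2 were Alkbh1 (0.977), Mmp3 (0.976), a matrix metalloproteinase, and Tsku (0.972). Nearest to Csf3 were Cxcl3 (0.978), a neutrophil chemokine, Lif (0.973), a cytokine of the interleukin 6 family, and Ccl2 (0.957), a monocyte chemokine. The nearest genes were Stim2 for Il34 (0.926), Jade2 for Il15 (0.901), Mtpap for Kitl (0.948) and Slc25a24 for Tnfsf13b (0.819). Il7 did not reach the mean of 5 CPM in a group that a member needed for this search. All 18 libraries enter each r, so groups and sets contribute to it.

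Of 15 genes for receptors of these cytokines, 6 were higher and 0 lower than hour 0 at hour 3, but 2 were higher and 5 lower with library totals. With TMM, the test called 16.9% of all genes higher at hour 3 and 43.1% lower. Receptor genes at day 1 numbered 3 higher and 1 lower, beside 9.67% and 12.8% of all genes. Day 2 had 3 and 0, beside 5.13% and 9.63%. Day 8 had 9 higher and 1 lower, where 11.2% of all genes were higher and 32.7% lower, and day 23 had 4 and 1, where 8.52% were higher and 25.4% lower. With library totals day 1 had the same counts, day 2 had 7 higher and 0 lower, day 8 had 5 and 1, and day 23 had 3 and 3. The median log2 fold change of the 15 was 0.68 at hour 3 and 0.69 at day 8, against -1.41 and -0.68 over all genes tested. Il15ra, which presents IL-15 to neighbouring cells, was the receptor gene with the smallest adjusted p at hour 3, day 1, day 2 and day 23. Its libraries held 377, 352 and 334 CPM at hour 3, 145, 211 and 126 CPM at day 1 and 71.9, 70.3 and 65.2 CPM at day 2, against 15.6, 21.0 and 12.0 CPM at hour 0. By these TMM-scaled levels, the 3 infected groups did not overlap with each other or with hour 0. From hour 3 to day 1 Il15ra fell by 1.14 with TMM (adjusted p = 1.85e-05). This call was lost with library totals (0.14, adjusted p = 0.578). Against hour 0 Il15ra rose by 4.45 ± 0.22 at hour 3 (adjusted p = 2.51e-15) and by 3.31 ± 0.21 at day 1 (adjusted p = 8.1e-13). With library totals these rises were 3.27 and 3.41. At day 2 it rose by 2.10 ± 0.21 (adjusted p = 7.14e-09). At hour 3 the receptor gene rose while Il15 fell, and at day 1 both rose.

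**Figure D4:**
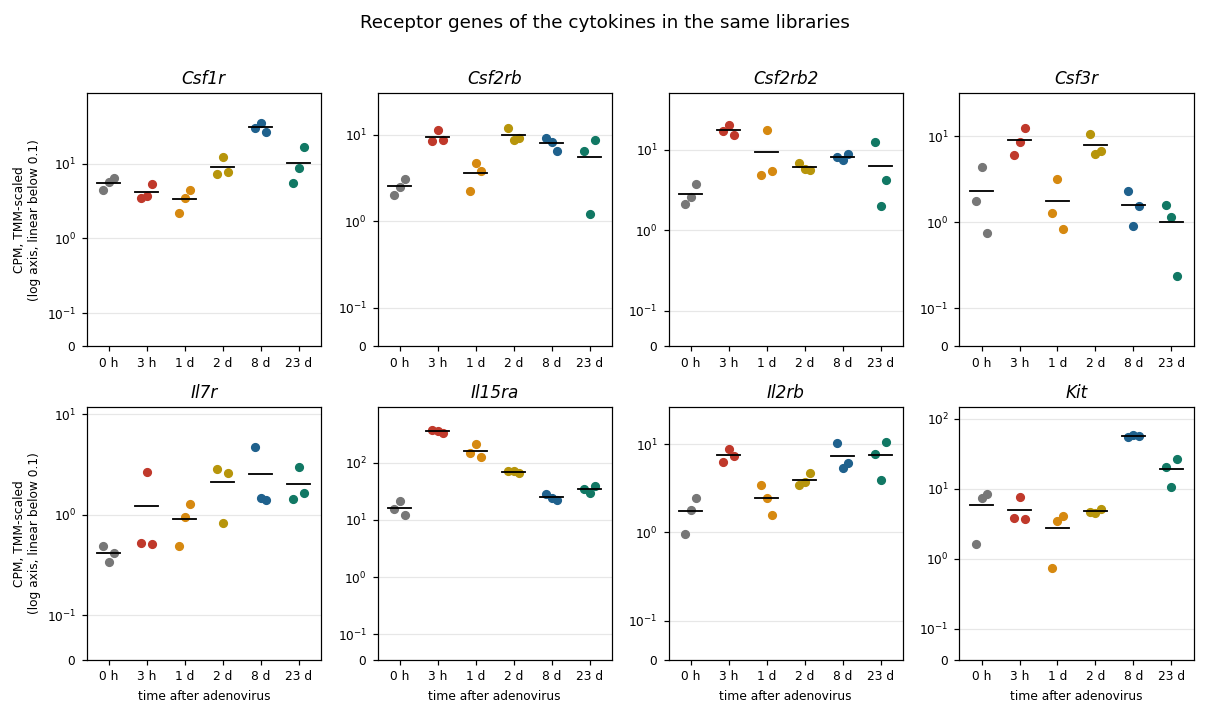
TMM-scaled CPM of 8 receptor genes (log axis, linear below 0.1) by time after adenovirus, 1 point per library and a bar at the mean of 3. With this scaling Il15ra was highest at hour 3 with 354 CPM, while Csf1r and Kit peaked at day 8 with 30.7 and 57.3 CPM.

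The receptor genes of the colony-stimulating factors are genes of leukocytes, and they were low throughout. Csf1r, the macrophage receptor for both Csf1 and Il34, held 30.3, 35.1 and 26.6 CPM at day 8, against 4.44, 5.65 and 6.43 CPM at hour 0. It rose by 2.47 ± 0.35 (adjusted p = 9.08e-06), and the groups did not overlap. The other 13 macrophage and monocyte markers, all with counts, summed to 182 to 230 CPM at day 8, against 44.2 to 65.4 CPM at hour 0, and their part in the rise of Csf1r was not tested. Csf2rb2 and Csf2rb, chains of receptors of the Csf2 family, rose at hour 3 by 2.61 ± 0.49 (adjusted p = 8.83e-05) and 1.90 ± 0.47 (adjusted p = 0.00143). Csf3r rose by 2.00 ± 0.60 (adjusted p = 0.0074). With library totals Csf2rb (0.74, adjusted p = 0.158) and Csf3r (0.81, adjusted p = 0.227) did not pass. Csf3r is itself a neutrophil marker, and the other 9 summed to 29.2 to 35.6 CPM at hour 3, against 6.27 to 11.3 CPM at hour 0. Of these 9, S100a9 alone had a mean of 21.4 CPM at hour 3, against 0.0753 CPM at hour 0. The part of these markers was not tested.

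Kit, the receptor of Kitl, held 55.6, 59.2 and 57.2 CPM at day 8 and 20.1, 10.6 and 26.2 CPM at day 23, against 1.64, 7.34 and 8.33 CPM at hour 0. It rose by 3.31 ± 0.45 at day 8 (adjusted p = 4.3e-06) and by 1.69 ± 0.44 at day 23 (adjusted p = 0.00653), while Kitl itself did not pass at either time. The other 6 mast cell markers (Cpa3, Mcpt4, Cma1, Tpsb2, Fcer1a and Ms4a2) were all at 0 at day 8. The 12 epithelial and duct markers, all with counts, summed to 3599 to 6153 CPM at day 8, against 981 to 2021 CPM at hour 0, and their part in the rise of Kit was not tested. Il7r and Il2rb, receptor chains for Il7 and Il15 on lymphocytes, rose at day 8 by 2.58 ± 0.85 (adjusted p = 0.0177) and 2.05 ± 0.46 (adjusted p = 0.0016). Their levels were low, with means of 2.53 and 7.30 CPM at day 8 against 0.411 and 1.75 CPM at hour 0. Il2rb also rose at hour 3 by 2.08 ± 0.47 (adjusted p = 0.000661), a call lost with library totals (0.92, adjusted p = 0.092). At day 23 Il2rb rose by 2.05 ± 0.47 (adjusted p = 0.00305) and Il7r by 2.28 ± 0.86 (adjusted p = 0.0419). The Il7r call at day 23 was lost with library totals (1.81, adjusted p = 0.0972). The T and NK cell markers other than Il2rb, all 13 with counts at day 8, summed to 25.7 to 44.8 CPM, against 11.9 to 18.9 CPM at hour 0 with Gzma at 0. They summed to 4.07 to 6.62 CPM at hour 3, with Cd3e, Cd3d, Cd8b1 and Klrb1c at 0. At day 23 they summed to 17.1 to 34.5 CPM, with Klrb1c at 0, and their part was not tested. The BAFF receptor genes were near the floor: Tnfrsf13c had 0 counts and Tnfrsf13b 2 counts over the 3 day 23 libraries, where Tnfsf13b was highest.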

How the data were processed

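The deposited files hold raw counts per Ensembl gene, 1 file per library. Per the submitters' processing notes, FastQC, STAR and Subread were used with mm10, and DESeq2 is named. Versions, annotation release, strand setting and the treatment of multi-mapping reads are not given in the sources used here. Of 55401 identifiers, 55141 matched GENCODE M21 (GRCm38), and the other 260 held 0.0241% of counts.

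Depth was 4398234 to 15234431 counts per library. An edgeR 4.0.16 quasi-likelihood fit (R 4.3.3, TMM scaling, filterByExpr with min.count 10 and min.total.count 15) held all 18 libraries, and p-values were adjusted by Benjamini and Hochberg over 27525 genes per contrast. All 8 members passed the filter. Log2 CPM used a prior count of 2. The fit was tested on simulated data. Alternatives were DESeq2 size factors, library totals, no filter, a minimum of 5 CPM in 3 libraries, limma-voom (limma 3.58.1), DESeq2 1.42.0, subtraction of background estimated from sensory receptor genes, fits of fewer groups, and each replicate left out. Ratios resting on few counts have 95% exact intervals, and a group at 0 was set to 3 counts over the group.

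The members, the lists (receptors, related cytokines, markers) and the tests were chosen with earlier results of these data known. The text names the 8 members, list genes that passed (at most 6 per contrast, by adjusted p) and the 3 genes most like each member.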

Additional observations from a re-analysis of the deposited data

How the results depend on the processing

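No paired analysis was possible because each replicate number belongs to 1 library of 1 mouse and no number recurs between groups. Of the alternatives run on the 44 member results that passed, 1168 kept direction and call, 30 lost the call and 1 reversed, namely Kitl at day 1 against hour 3, which was 0.0664 with library totals. Of those on the 44 that did not pass, 73 reversed, and none of these values passed the test except Tnfsf13b at hour 3 (-0.83 with library totals).

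The number of members called moved as follows. At day 8 against hour 0 it was 2, 1 with the filter of 5 CPM, limma-voom, background subtracted or only the 2 groups compared, and 3 with DESeq2 size factors, library totals, no filter or DESeq2 (1 to 3 with a replicate left out). At day 23 against hour 0 it was 2, 4 with DESeq2 size factors, library totals or DESeq2, and 1 with only the 2 groups (2 to 4 with a replicate left out). At day 2 against day 1 it was 4, and 2 with library totals or DESeq2 (3 to 5 with a replicate left out). At day 8 against day 2 it was 4, and 7 with only the 2 groups (4 to 5 with a replicate left out). At day 23 against day 8 it was 1, 2 with no filter and 0 with only the 2 groups (0 to 2 with a replicate left out). At day 8 against hour 3 it was 4, and 4 to 6 over all alternatives. In the 2-group fits of day 8 or day 23 against hour 0 and of day 23 against day 8, 6 of the 8 members passed the filter, without Csf2 and Csf3. The cause of these moves was not tested.

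The other reversals were of results that had not passed. With DESeq2 they were Il15 at day 23 against hour 0 (-0.0068), Tnfsf13b at day 8 against day 2 (-0.0135), Kitl at day 8 against hour 0 (-0.088) and Il34 at day 2 against hour 0 (0.1292). DESeq2 size factors gave -0.0056, -0.0141, -0.0881 and 0.1278 for the same 4 results. With background subtracted they were Kitl at day 8 against hour 0 (-0.0307) and Il7 at day 1 against hour 3 (-0.1045), at day 8 against hour 0 (0.0346) and at day 23 against hour 0 (0.2243). The filter of 5 CPM gave -0.0897 for Kitl at day 8 and 0.0322 for Il34 at day 2. Library totals gave -0.0384 for Csf1 at day 23 against day 8, and against hour 0 -0.0438 for Il34 at day 23, -0.336 for Il15 at day 23, -0.3498 for Kitl at day 8 and 0.2761 for Il34 at day 2. Against day 2 they gave -0.2942 for Kitl and -0.4239 for Tnfsf13b at day 8, and 0.1643 for Il34 at day 8 against hour 3. Limma-voom gave -0.0314 for Csf1, -0.1368 for Il7 and 0.1622 for Csf2 at day 23 against day 8 (0 and 2 counts), and for Il7 -0.329 at day 1 against hour 3 and 0.1481, 0.3573 and 0.2205 at hour 3, day 8 and day 23 against hour 0. With no filter, against hour 0, they were Il15 at day 2 (-0.0314), Il7 at day 23 (0.0037), Csf1 at day 23 (0.0197) and Csf1 at day 8 (0.1487), and Csf1 at day 23 against day 8 (-0.129). Only the 2 groups gave -0.0186 for Il15 at day 2, -0.0215 for Il15 at day 23 and -0.0571 for Kitl at day 8, all against hour 0, and leaving out the day 2 libraries gave -0.1007 for Kitl at day 8 and -0.0066 for Il15 at day 23.

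With a replicate left out, results that crossed 0 against hour 0 ran from -0.2649 to 0.0553 for Csf1 at day 23, -0.179 to 0.4362, -0.5785 to 0.038 and -0.0782 to 0.5378 for Il15 at day 2, day 8 and day 23, -0.3111 to 0.1129 for Il34 at day 2 and -0.0861 to 0.1826 for Kitl at day 8. Il7 ran from -0.9445 to 0.6935 at hour 3, -1.6662 to 0.8238 at day 1, -0.8088 to 0.8246 at day 8 and -1.0702 to 1.0013 at day 23. Against hour 3 the ranges were -1.2347 to 0.6272, -0.1332 to 0.6135 and -0.6384 to 0.8002 for Il7 at day 1, day 8 and day 23, and -0.03 to 0.3001 for Tnfsf13b at day 8. At day 23 against day 8 they were -0.2033 to 0.1411 for Csf1, -2.865 to 0 for Csf2 and -0.7699 to 0.5078 for Il7. Il7 rested on 38 to 101 counts per group, and Csf2 and Csf3 after day 2 on 0 to 14.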

Other observations

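Of 14 cytokine genes of the same families, 12 passed the filter. Against hour 0, 5 were higher and 6 lower at hour 3, 5 and 1 at day 1, 3 and 0 at day 2, 0 and 6 at day 8, and 0 and 5 at day 23. Of all genes tested, 16.9% were higher and 43.1% lower for hour 3, 9.67% and 12.8% for day 1, and 5.13% and 9.63% for day 2. The shares were 11.2% and 32.7% for day 8, and 8.52% and 25.4% for day 23. The median log2 fold change of the 12 was -1.24 for hour 3, against -1.41 over all genes. It was -0.51 for day 1 (all genes -0.41), 0.24 for day 2 (all genes 0.29), -1.96 for day 8 (all genes -0.68) and -2.06 for day 23 (all genes -0.53). With library totals the counts were 4 higher and 7 lower for hour 3, 5 and 0 for day 1, and 3 and 0 for day 2. They were 0 and 7 for day 8, and 0 and 6 for day 23. Among the genes lower at hour 3, day 8 and day 23 were Il4, Il9, Il21 and Epo. These held 27, 42, 70 and 22 counts over the 3 hour 0 libraries. At hour 3 they held 0, 1, 2 and 0 counts, at day 8 0, 0, 7 and 0, and at day 23 0 each. Hour 0 is in the set of higher background, and the part of background in these falls was not tested. Cytokines of the interleukin 6 family rose with the colony-stimulating factors. Il6, which drives B cell and T cell responses, held 10991, 6803 and 7200 CPM at hour 3, against 11.5, 7.12 and 47.1 CPM at hour 0, and rose by 8.55 ± 0.62 (adjusted p = 3.98e-12). Lif, which was also among the genes most like Csf3, rose by 8.32 ± 0.56 (adjusted p = 8.26e-13) and Il11 by 4.08 ± 0.69 (adjusted p = 1.85e-05).

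Tslp, which uses Il7r and acts on dendritic cells and type 2 lymphocytes, had its highest values a day later than Csf1. Its libraries held 41.0, 21.8 and 23.1 CPM at hour 3 and 51.2, 55.3 and 35.1 CPM at day 1, against 3.38, 4.41 and 3.71 CPM at hour 0. Hour 3 and day 1 overlapped, and both lay above hour 0. The rise was 2.90 ± 0.33 at hour 3 (adjusted p = 2.31e-08), 3.62 ± 0.33 at day 1 (adjusted p = 7.85e-10) and 2.02 ± 0.32 at day 2 (adjusted p = 2.53e-05). Thpo, the platelet growth factor, rose at day 1 by 2.73 ± 0.73 (adjusted p = 0.00587), from a low level (0.961 CPM at hour 0). Flt3l, the growth factor of dendritic cells, fell by 1.78 ± 0.45 at hour 3 (adjusted p = 0.00191) and by 1.60 ± 0.44 at day 8 (adjusted p = 0.00607). Over all genes tested, 43.1% were lower at hour 3 and 32.7% at day 8, with medians of -1.41 and -0.68. Tnfsf13 (APRIL), the nearest relative of Tnfsf13b, fell by 3.38 ± 0.84 at hour 3 (adjusted p = 0.00171), where its 3 libraries held 7 counts.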
